A study of Mus musculus with 16 samples.

Results

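The miR-15/16 family of miRNAs, with its relatives miR-195a, miR-195b, miR-497a and miR-497b, was followed through the small RNA of mouse stromal cells and of the exosomes they release. All rows of the small RNA table named mmu-mir-15a, mmu-mir-15b, mmu-mir-16, mmu-mir-195a, mmu-mir-195b, mmu-mir-497a or mmu-mir-497b were taken, whatever their locus number and for both arms of the hairpin. This gave 16 miRNA arms of 2386 in the table. Of these 16 arms, 12 reached a deposited value of 10 or more in at least 1 group and 4 had 0 reads in every group.

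A miRNA hairpin is cut into a duplex whose 5p and 3p strands can each be loaded into an Argonaute protein, and the loaded strand finds messenger RNAs mainly through its seed, bases 2 to 8. The 5p arms of this family share a seed and are known for lowering cell cycle and survival proteins, among them D-type cyclins, cyclin E1 and Bcl2. Their 3p arms are usually the less abundant strand and have other seeds. The family is known for restraining proliferation, and miR-16-5p is one of the abundant miRNAs of blood cells and blood plasma.

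The study compared AFT024 and BFC012, stromal cell lines made from C57BL/6 mouse fetal liver at 14.5 dpc (days post coitum). AFT024 is labelled as supportive of haematopoietic stem and progenitor cells (HSPC) and BFC012 as non-supportive. From each line, polyA RNA and small RNA libraries were made of whole cells and of secreted exosomes, for 16 samples in all and 2 samples per group. Exosome RNA came from several pooled extractions, was split for technical sequencing replicates, and the replicates were merged. No treatment or genetic change is named in the labels, each kind of line is represented by 1 line, and the culture serum is not stated.

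The tables hold 1 merged value per group, so no difference below has a replicate check, no test was made and no p-value is given. Depth in small RNA was 1120450 reads (AFT024) and 1247068 reads (BFC012) in exosomes, and 17293776 and 17547485 reads in cells of these lines. A single read was therefore worth a value of 2.675, 2.659, 0.356 and 0.3527 in this order, which is the order of all 4-group lists below. Values are whole reads divided by a size factor, and intervals are exact Clopper-Pearson intervals at 95% that cover counting error only. A list of erythroid, leukocyte and hepatocyte miRNAs, chosen after values were seen, had 9 of 9 arms at least 2-fold higher in exosomes than in cells in both lines. Over the 818 kept arms the share was 30.7% in AFT024 and 35.6% in BFC012. The list's summed value was 127600 in AFT024 exosomes, 96210 in BFC012 exosomes, 2912 in AFT024 cells and 13280 in BFC012 cells. miR-486a-5p alone made up 83500, 76800, 2835 and 13230 of these sums. At 0 reads were miR-122-5p in AFT024 cells and miR-223-3p in BFC012 cells. The part of other cell types or of serum in the exosome values below was not tested, and more vesicles cannot be told apart from more RNA per vesicle.

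RefSeq mature sequences (GRCm38.p6) were found for 14 of the 16 arms and were 13 distinct sequences. The 5p arms are shown first, because they share the seed that groups the family. Capitals mark bases 2 to 8.
miR-16-5p (loci 16-1 and 16-2): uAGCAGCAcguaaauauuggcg
miR-15a-5p: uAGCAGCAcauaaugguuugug
miR-15b-5p: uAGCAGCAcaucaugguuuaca
miR-195a-5p: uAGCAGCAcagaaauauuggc
miR-195b-5p: uAGCAGCAcagaaauaguagaa
miR-497a-5p: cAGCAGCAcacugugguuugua
All 7 rows with these sequences have the seed AGCAGCA, and they differ after it. Compared from the 5′ end, miR-195a-5p matched miR-16-5p at 19 of 21 positions, miR-15a-5p at 16 of 22, miR-195b-5p at 16 of 22, miR-15b-5p at 14 of 22 and miR-497a-5p at 11 of 22. The rows mir-16-1-5p and mir-16-2-5p have the same mature sequence, so a read cannot be given to either locus and their values are uncertain as locus values.

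The 3p arms are shown because the member with the highest exosome to cell ratio is a 3p arm. They had 6 distinct seeds, marked in capitals.
miR-15b-3p: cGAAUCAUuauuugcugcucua
miR-15a-3p: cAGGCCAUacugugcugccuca
miR-16-1-3p: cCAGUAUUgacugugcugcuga
miR-16-2-3p: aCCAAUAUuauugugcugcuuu
miR-195a-3p: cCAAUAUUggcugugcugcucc
miR-497a-3p: cAAACCACacugugguguuag
The row mir-497b-5p (RefSeq mmu-miR-497b) has another seed than the other 5p arms, as its sequence shows.
miR-497b: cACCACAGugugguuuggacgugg
The rows mir-195b-3p and mir-497b-3p are named only.

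In the GRCm38 annotation (GENCODE M21) the hairpins lie in pairs. Mir15b (chr3:69009772-69009835, plus strand) and Mir16-2 (chr3:69009902-69009996, plus strand) lie 66 bases apart in an intron of Smc4, which encodes a condensin subunit. Mir15a (chr14:61632027-61632110, minus strand) lies in an intron of the noncoding gene Dleu2. Mir16-1 (chr14:61631880-61631972, minus strand), 54 bases from Mir15a, overlaps an exon of at least 1 Dleu2 transcript. Mir497 (chr11:70234717-70234800, plus strand) and Mir195a (chr11:70235042-70235135, plus strand) are 241 bases apart. Mir497b (chr11:70234692-70234816) overlaps Mir497 on the minus strand, and Mir195b (chr2:56785811-56785907, plus strand) overlaps no annotated gene. The hairpin of miR-15b is given whole, with both mature arms in capitals, since its arms moved in opposite directions in the values below.
mir-15b hairpin: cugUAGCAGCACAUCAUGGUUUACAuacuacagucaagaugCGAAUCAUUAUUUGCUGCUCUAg

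miR-16-5p held most of the family's reads in every group. The row mir-16-1-5p had a value of 26124 in AFT024 exosomes, 51030 in BFC012 exosomes, 66633 in AFT024 cells and 66355 in BFC012 cells (9767, 19191, 187169 and 188134 reads). The row mir-16-2-5p had 25966, 50599, 64336 and 63526 in the same order, so the cell groups were close to each other and AFT024 exosomes were lowest. With 1 row per mature sequence, miR-16-5p made up 79.6% of the family's 5p reads in AFT024 exosomes (78.8 to 80.3), 86.7% in BFC012 exosomes (86.3 to 87.2), 82.8% in AFT024 cells (82.7 to 83.0) and 81.8% in BFC012 cells (81.6 to 81.9). With both rows counted these shares were 88.6%, 92.9%, 90.5% and 89.8%. With 1 row per sequence for the members, but every row of other miRNAs in the total, the whole family held 1.13%, 1.80%, 1.31% and 1.32% of all small RNA reads. With all member rows it held 1.99%, 3.32%, 2.36% and 2.34%, and BFC012 exosomes had the highest share either way. How reads matching both miR-16-5p loci were assigned is not stated. If they were split between the rows, shares with 1 row per sequence, here and below, count only a part of miR-16-5p.

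miR-15a-5p and miR-15b-5p, the next members by level, changed order between cells and exosomes. miR-15b-5p had a value of 2520 in AFT024 exosomes, 2808 in BFC012 exosomes, 7835 in AFT024 cells and 7398 in BFC012 cells (942, 1056, 22008 and 20974 reads). miR-15a-5p had 3753, 3669, 5353 and 6086 in the same order (1403, 1380, 15037 and 17255 reads). In cells miR-15b-5p was the higher of the pair and in exosomes miR-15a-5p was. The share of miR-15b-5p in the reads of the pair was 59.4% in AFT024 cells (58.9 to 59.9) and 54.9% in BFC012 cells (54.4 to 55.4), against 40.2% (38.2 to 42.2) and 43.4% (41.4 to 45.4) in the exosomes of these lines. This share does not depend on the size factors, and the intervals of cells and exosomes do not overlap in either line.

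**Figure D1:**
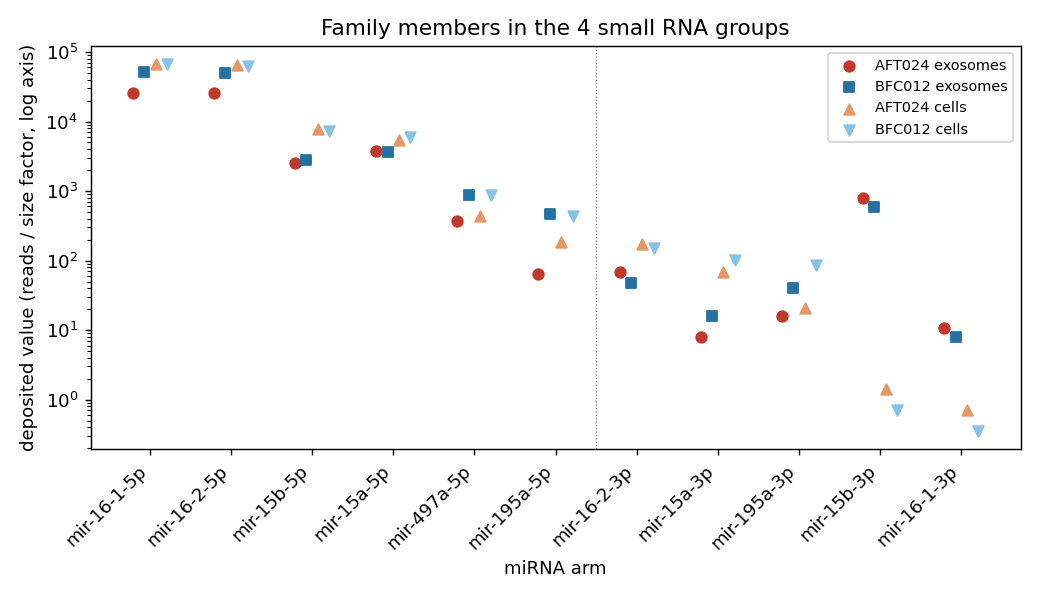
Deposited values (reads divided by a size factor, log axis) of the 11 members with reads in all 4 small RNA groups; each symbol is 1 merged value, and the dotted line parts 5p from 3p arms. The rows of miR-16-5p lie highest, and miR-15b-3p is the member whose exosome values, 802 and 588, lie farthest above its cell values, 1.42 and 0.705.

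miR-497a-5p and miR-195a-5p, from the chromosome 11 pair, were rarer and were higher in BFC012 than in AFT024 in both kinds of sample. miR-497a-5p had a value of 374 in AFT024 exosomes, 880 in BFC012 exosomes, 432 in AFT024 cells and 869 in BFC012 cells (140, 331, 1214 and 2463 reads). miR-195a-5p had 64.2, 465, 183 and 431 in the same order (24, 175, 514 and 1221 reads). The BFC012 groups were the higher ones for both arms, and AFT024 exosomes had the lowest values. In reads per library total AFT024 cells were instead the lowest group for miR-497a-5p. miR-195b-5p, which matches miR-195a-5p at 18 of 21 positions, had 0 reads in all groups, as did miR-195b-3p, miR-497a-3p and miR-497b-5p; a count of 0 allows up to 3 reads, a value of 8.02, 7.98, 1.07 and 1.06.

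**Figure D2:**
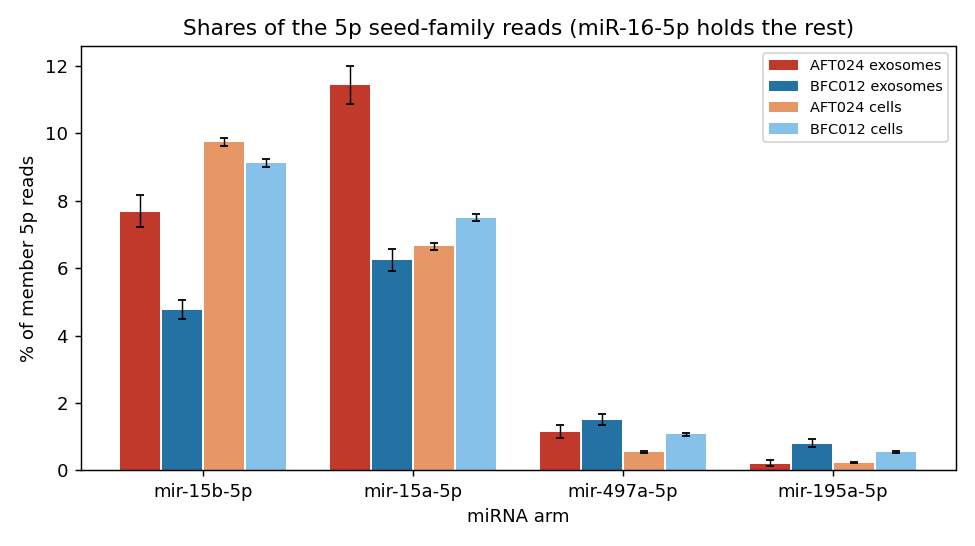
Share of the family's 5p reads (1 row per mature sequence) held by 4 members in each small RNA group; bars are percentages and whiskers 95% counting intervals, and miR-16-5p holds nearly all of the rest. miR-15b-5p is the higher of the miR-15 pair in cells and miR-15a-5p in exosomes, and miR-195a-5p is highest in BFC012 exosomes at 0.791%.

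Among the 3p arms, miR-15b-3p was abundant in exosomes and nearly undetected in cells. It had a value of 802 in AFT024 exosomes and 588 in BFC012 exosomes (300 and 221 reads), against 1.42 and 0.705 in the cells (4 and 2 reads). Both exosome groups lay far above both cell groups, although the cell libraries were the deeper ones. miR-16-1-3p was also higher in exosomes, at 10.7 and 7.98 against 0.712 and 0.353, but these values stand for 4, 3, 2 and 1 reads.

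miR-16-2-3p, miR-15a-3p and miR-195a-3p were instead highest in a cell group. miR-16-2-3p had a value of 69.5 in AFT024 exosomes, 47.9 in BFC012 exosomes, 173 in AFT024 cells and 150 in BFC012 cells (26, 18, 487 and 426 reads). miR-15a-3p had 8.02, 15.95, 68.0 and 101.6 (3, 6, 191 and 288 reads). miR-195a-3p had 16.05, 39.9, 21.0 and 85.7 (6, 15, 59 and 243 reads), and was the only one of these arms for which an exosome group lay above a cell group. miR-497b-3p had 4 reads in BFC012 exosomes and 0 in the other groups, and its locus overlaps Mir497 on the other strand, so its assignment is uncertain.

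Exosomes were then compared with the cells of the same line, the question being which miRNAs the vesicles carry at another level than their source cells. A member was counted as higher or lower where log2 of the value plus 1 differed by at least 2-fold. In AFT024, 2 of the 12 kept members were higher in exosomes, against 30.7% of the 818 kept arms, and 6 were lower, against 35.6%. Counting 1 row per mature sequence left 5 lower members in AFT024. In BFC012, 3 of 12 were higher, against 35.6% of arms, and 4 were lower, against 32.8%. The median log2 ratio of the kept members was -0.91 in AFT024 and -0.35 in BFC012, beside -0.22 and -0.04 over all kept arms. Of the 12 kept members, 3 were kept only through an exosome group and so had to lie higher in the group that passed. miR-15b-3p passed in exosomes of both lines, miR-16-1-3p in AFT024 exosomes only and miR-497b-3p in BFC012 exosomes only. miR-497b-3p had 0 reads in AFT024 exosomes and in both cell groups. It nevertheless stays among the 12 members and in the medians of every comparison. Asking for 10 or more reads in a compared group left 1 higher member in each line, miR-15b-3p, against 26.4% of such arms in AFT024 and 29.8% in BFC012.

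Several of these counts depend on the size factors. Scaling by library size in place of the deposited size factors raised every log2 ratio of exosomes to cells by 1.04 in AFT024 and by 0.90 in BFC012 before the added 1, and left 1 member at least 2-fold lower in each line, miR-15a-3p, against 15.3% of arms in AFT024 and 19.2% in BFC012. Directions below are therefore given with their library-size value where the sign turns.

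miR-15b-3p was 563.5-fold higher in AFT024 exosomes than in AFT024 cells by read ratio (217.8 to 2082), and 833-fold higher in BFC012 (228 to 6922). By log2 of the value plus 1 these were differences of 8.37 and 8.43, which ranked 4 and 5 among the 818 kept arms. Only 3 arms in AFT024 and 7 in BFC012 had at least 100 reads in exosomes and at most 5 in cells. In both lines 2 did so, miR-15b-3p and miR-223-3p, a myeloid miRNA. Those limits were not planned and were set after the reads of miR-15b-3p were seen, so these counts are description only. The other strand of the same hairpin, miR-15b-5p, went the other way, with a read ratio of 0.322 in AFT024 (0.301 to 0.343) and 0.380 in BFC012 (0.357 to 0.404). Under library-size scaling its log2 ratios were -0.60 and -0.50, so that it was lower in exosomes under both scalings.

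miR-16-5p was lower in AFT024 exosomes than in AFT024 cells, with read ratios of 0.392 (0.384 to 0.400) for mir-16-1-5p and 0.404 (0.395 to 0.412) for mir-16-2-5p. In BFC012 the same ratios were 0.769 (0.758 to 0.781) and 0.797 (0.785 to 0.809), short of 2-fold. Under library-size scaling the log2 ratio of mir-16-1-5p was -0.31 in AFT024 and 0.52 in BFC012, so the direction in BFC012 depends on the scaling. miR-15a-5p had read ratios of 0.701 (0.663 to 0.741) and 0.603 (0.570 to 0.637), and its log2 ratios turned to 0.53 and 0.17 under library-size scaling.

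**Figure D3:**
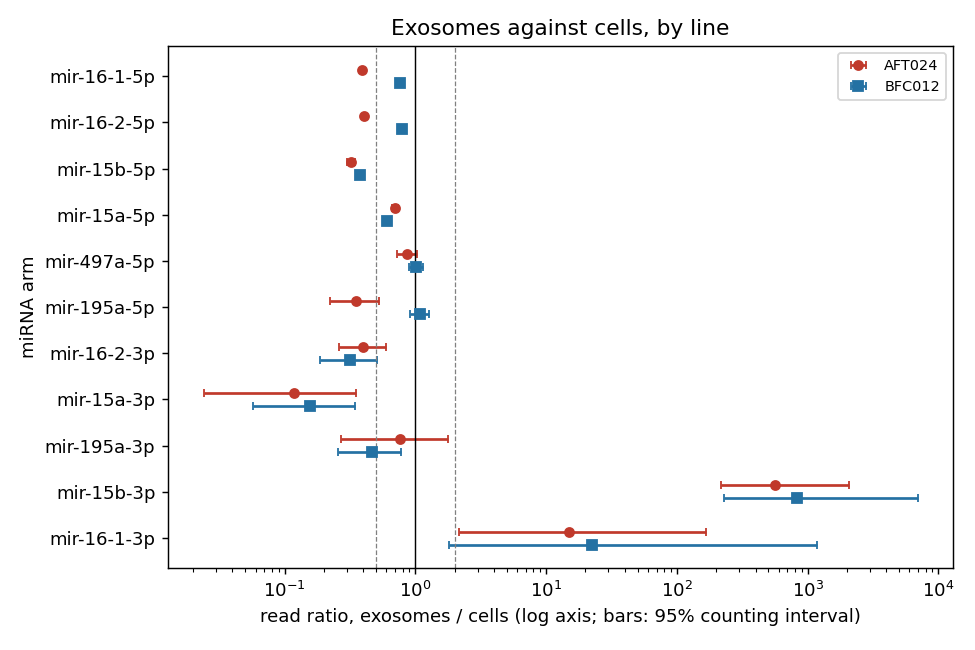
Read ratio of exosomes to cells (log axis) of 11 members in AFT024 and BFC012, scaled by the deposited size factors; bars are 95% counting intervals and dashed lines mark 2-fold. miR-15b-3p lies at 563.5 and 833, miR-15b-5p at 0.322 and 0.380, and the wide bars of miR-16-1-3p stand for 4 reads or fewer per group.

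miR-195a-5p was lower in AFT024 exosomes, at a read ratio of 0.351 (0.223 to 0.528), and near its cell level in BFC012, at 1.08 (0.917 to 1.27). Its log2 ratio was -0.45 in AFT024 and 1.002 in BFC012 under library-size scaling, so the lines kept this order. miR-497a-5p, its neighbour, had ratios of 0.866 (0.722 to 1.03) and 1.01 (0.901 to 1.14), neither interval leaving 1. Under library-size scaling the log2 ratios of miR-497a-5p were 0.82 and 0.91.

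Of the other 3p arms, miR-16-1-3p had ratios of 15.03 in AFT024 (2.15 to 166) and 22.6 in BFC012 (1.82 to 1187), from the few reads given above. The remaining 3p arms with reads in all groups had ratios under 1. miR-15a-3p had the lowest ratios of the family, 0.118 in AFT024 (0.0241 to 0.350) and 0.157 in BFC012 (0.0572 to 0.346), resting on 3 and 6 exosome reads. miR-16-2-3p had 0.401 (0.259 to 0.595) and 0.319 (0.187 to 0.510). miR-195a-3p had 0.764 (0.2695 to 1.76) and 0.465 (0.257 to 0.783), the first of which includes 1 and turns to a log2 ratio of 0.53 under library-size scaling.

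Setting the lines side by side, the intervals of the exosome to cell ratio were apart for 5 members: miR-15a-5p, miR-15b-5p, both rows of miR-16-5p, and miR-195a-5p. That is 5 of 11 members, against 35.4% of the 782 kept arms with reads in both comparisons, and both rows of miR-16-5p stand for 1 mature sequence. Under library-size scaling 4 of 11 were apart, against 35.7%, and under median-of-ratios scaling 4, against 35.2%. The intervals of miR-15b-5p were apart only with the deposited size factors. They overlapped under library-size scaling (0.618 to 0.705 in AFT024 and 0.665 to 0.754 in BFC012) and under median-of-ratios scaling (0.373 to 0.425 and 0.409 to 0.463). The intervals overlapped with the deposited size factors for miR-15a-3p, miR-15b-3p, miR-16-1-3p, miR-16-2-3p, miR-195a-3p and miR-497a-5p. These intervals hold no variation between cultures, so the lines were not shown to differ by a test.

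The balance of the strands within each hairpin needs no size factor. The 3p strand of mir-15b gave 24.2% of its hairpin's reads in AFT024 exosomes (21.8 to 26.6) and 17.3% in BFC012 exosomes (15.3 to 19.5). In cells it gave 0.0182% (0.00495 to 0.0465) and 0.00953% (0.00115 to 0.0344). For mir-15a the order was reversed, with 0.213% (0.0440 to 0.622) and 0.433% (0.159 to 0.940) in exosomes and 1.25% (1.08 to 1.44) and 1.64% (1.46 to 1.84) in cells.

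With reads as listed per row, the miR-16 and miR-195a hairpins shifted by fewer percentage points than mir-15b. The other strand of mir-16-1 and mir-16-2 has the same mature sequence, so its reads cannot be given to either locus. The shares given below for mir-16-1 and mir-16-2 are therefore uncertain as strand balances of a hairpin. Their intervals do not cover this. The 3p share of mir-16-1 was also higher in exosomes, at 0.0409% (0.0112 to 0.105) in AFT024 and 0.0156% (0.00322 to 0.0457) in BFC012. In cells it was 0.00107% (0.000129 to 0.00386) and 0.000532% (1.35e-05 to 0.00296). These shares rest on 4, 3, 2 and 1 3p reads. mir-16-2 gave 0.267% of its reads from the 3p strand in AFT024 exosomes (0.175 to 0.391) and 0.269% in AFT024 cells (0.245 to 0.294), and 0.0945% (0.0560 to 0.149) and 0.236% (0.214 to 0.259) in BFC012. For mir-195a the shares were 20.0% (7.71 to 38.6) and 7.90% (4.49 to 12.7) in AFT024 and BFC012 exosomes, and 10.3% (7.93 to 13.1) and 16.6% (14.7 to 18.6) in the cells. mir-497a gave 0 3p reads of 140, 331, 1214 and 2463. The 3p strands of miR-16 also tell the loci apart, and mir-16-2 gave 86.7%, 85.7%, 99.6% and 99.8% of them, of 30, 21, 489 and 427 reads.

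Over the 163 hairpins with at least 100 reads in each group, the median absolute shift of the 3p share between exosomes and cells was 1.12 percentage points in AFT024 and 1.58 in BFC012. The 3p share of mir-15b rose by 24.1 points in AFT024, rank 16 of 163, and by 17.3 points in BFC012, rank 20. Rises of at least 10 points were seen for 22 hairpins in AFT024 and 28 in BFC012, 19 of them in both lines. A rise of that many points was thus not particular to mir-15b. Points do not show the fold of a rise, and among the 19 hairpins mir-15b had the lowest 3p shares in cells, 0.0182% and 0.00953%. The next lowest were mir-3470b at 4.02% in AFT024 cells and let-7d at 4.33% in BFC012 cells.

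**Figure D4:**
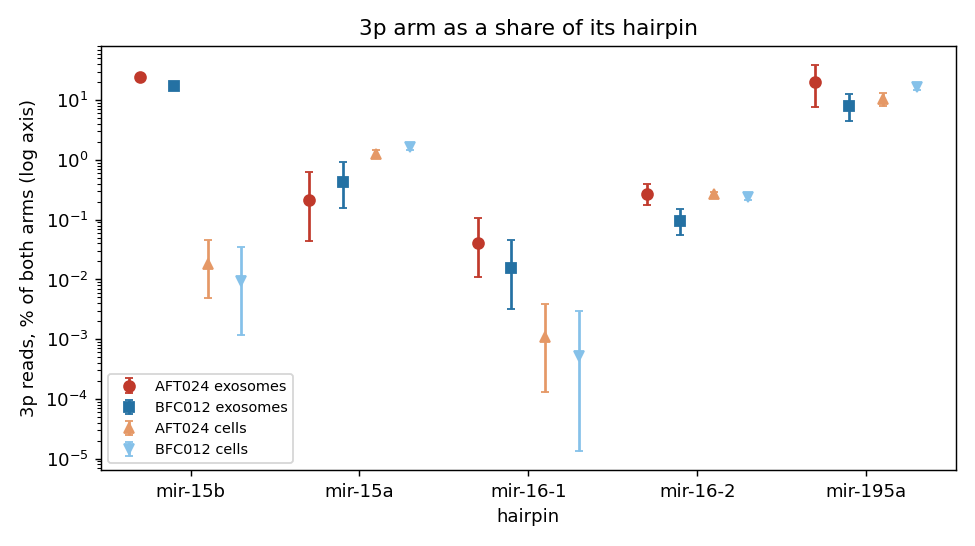
Share of each hairpin's reads that came from its 3p strand (percent, log axis) in the 4 small RNA groups; bars are 95% counting intervals. mir-15b lies at 24.2% and 17.3% in exosomes against 0.0182% and 0.00953% in cells, while mir-15a lies lower in exosomes than in cells. Shares of the miR-16 hairpins are uncertain, because reads of their other strand cannot be given to either locus.

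AFT024 was then compared with BFC012, the question being what separates a supportive from a non-supportive line. In cells, 0 of the 12 kept members were at least 2-fold higher in AFT024, against 20.2% of arms, and 3 were lower, against 18.7%. The 3 were miR-195a-3p, with a read ratio of 0.245 (0.181 to 0.327), miR-195a-5p, with 0.425 (0.383 to 0.471), and miR-497a-5p, with 0.498 (0.464 to 0.533), all from the chromosome 11 pair. miR-16-5p was level between the lines, at 1.004 (0.998 to 1.01) for mir-16-1-5p, and miR-15b-5p was at 1.06 and miR-15a-5p at 0.880. Over the kept members the median log2 ratio was 0.00, as it was over all arms.

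In exosomes, 0 of 12 kept members were at least 2-fold higher in AFT024, against 24.2% of arms, and 4 were lower, against 23.5%. They were miR-195a-5p, with a read ratio of 0.138 (0.0861 to 0.212), miR-497a-5p, with 0.425 (0.347 to 0.520), miR-195a-3p, with 0.402 (0.128 to 1.10), and miR-497b-3p, with 0 against 4 reads. Both rows of miR-16-5p came just short of the threshold, at 0.512 (0.4996 to 0.525) and 0.513. miR-15a-5p was at 1.02, miR-15b-5p at 0.897 and miR-15b-3p at 1.37 (1.14 to 1.63). The median log2 ratio of the kept members was -0.94, or -0.66 with miR-497b-3p in AFT024 set to the floor of 3 reads, beside 0.01 over all arms. The exosome groups and cell groups used here are the same as in the comparison of exosomes with cells.

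**Figure D5:**
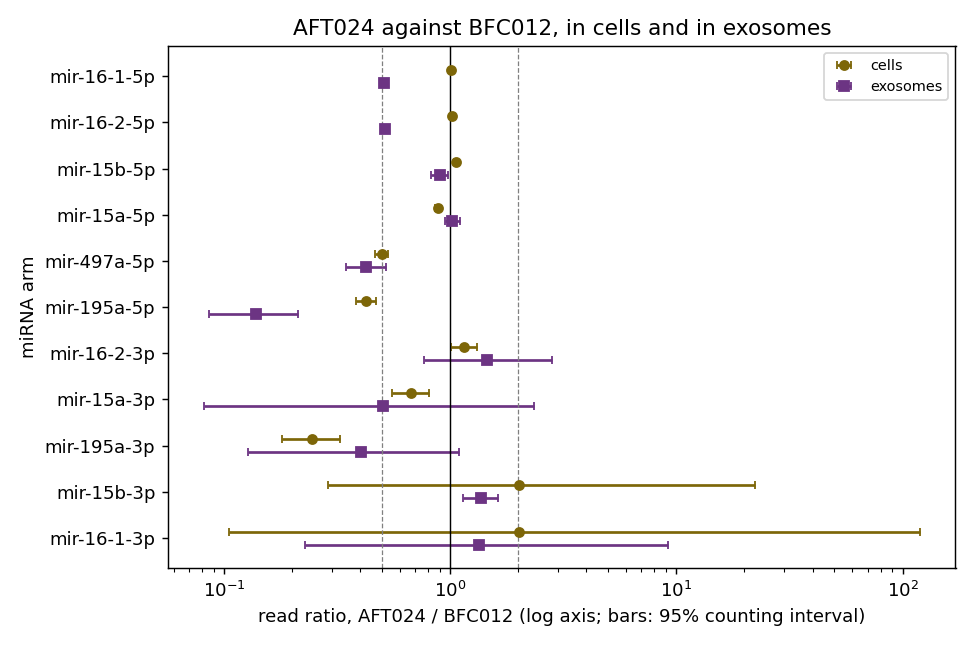
Read ratio of AFT024 to BFC012 (log axis) of 11 members in cells and in exosomes; bars are 95% counting intervals and dashed lines mark 2-fold. miR-195a-5p lies at 0.425 in cells and 0.138 in exosomes, and mir-16-1-5p at 1.004 in cells and 0.512 in exosomes.

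Other arms with the family's 5p seed were read for context. miR-322-5p, the mouse counterpart of miR-424, had a value of 2969 in AFT024 exosomes, 8748 in BFC012 exosomes, 17518 in AFT024 cells and 56200 in BFC012 cells. It held 8.29%, 12.9%, 17.9% and 40.9% of all reads with that seed, 1 row per mature sequence. The share of seed reads from outside the family's members was thus highest in BFC012 cells. The remaining 3 miRNAs with the seed, miR-6342, miR-6353 and miR-6419, had 1 read among them.

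The arms whose profile over the 4 groups was nearest to a member were found by the Euclidean distance of centred log2 values, with arms of a value of 100 or more eligible. Nearest to mir-16-1-5p were miR-339-3p at 0.128 and miR-296-5p at 0.173, then miR-145a-3p, miR-125a-5p and let-7c-2-3p. Nearest to miR-15b-5p were miR-30b-5p at 0.168 and let-7g-5p at 0.290, then let-7a-2-5p, miR-182-5p and miR-34c-5p. For miR-15b-3p, added after its values were seen, the nearest were miR-144-5p at 0.963, miR-122-5p at 1.07, miR-223-3p at 1.09 and miR-142a-5p at 1.16, and then miR-6239-3p at 1.48. These distances were larger than those given for mir-16-1-5p and miR-15b-5p. All but miR-6239-3p are from the erythroid, leukocyte and hepatocyte list, which was chosen after values were seen and whose arms were all higher in exosomes. Their nearness to another arm with few cell reads is therefore no separate support for an origin of miR-15b-3p, which was not tested. With 4 groups, such distances describe these libraries only.

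Genes of the family's pathway were read in the polyA RNA of the same lines, from a list of 20 host and reported target genes. Of the list, 19 were in the table and 18 reached 1 FPKM in at least 1 group; Myb, a transcription factor of blood progenitors, did not. In exosomes against cells, 1 gene was at least 2-fold higher in AFT024, against 7.71% of 14969 genes, and 10 were lower, against 53.5%. In BFC012, 1 was higher, against 8.22%, and 10 lower, against 44.5%. The list's median log2 ratio was -1.52 in AFT024 and -1.39 in BFC012, beside -1.11 and -0.80 over all genes, which were lower in exosomes as well.

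The host genes were lower in exosomes. Smc4, host of mir-15b and mir-16-2, had 20.9 FPKM in AFT024 exosomes, 22.2 in BFC012 exosomes, 105 in AFT024 cells and 90.5 in BFC012 cells. Dleu2, host of mir-15a and mir-16-1, had 3.05, 0.885, 5.11 and 8.14 FPKM, from 23, 31, 878 and 1335 reads, and its fall in AFT024 was under 2-fold in FPKM but 0.114-fold by reads scaled to library size (0.0720 to 0.172). Both host genes were thus at their highest in a cell group, as miR-15b-5p was and miR-15b-3p was not. Relative to the median gene, the exosome to cell log2 ratios of Smc4 were -1.16 in AFT024 and -1.175 in BFC012. Those of Dleu2 were 0.52 and -1.47, so its direction in AFT024 depends on the measure.

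Ccnd2, which encodes cyclin D2, was the gene higher in exosomes in both lines, with 158 FPKM in AFT024 exosomes, 462 in BFC012 exosomes, 51.3 in AFT024 cells and 157 in BFC012 cells. Ccnd1, for cyclin D1, had 57.7, 95.6, 82.3 and 85.6 FPKM, and passed 2-fold in neither line. Targets that were lower in exosomes of both lines included Ccne1, for cyclin E1, with 2.53, 3.15, 21.8 and 19.5 FPKM. The checkpoint kinase gene Chek1 had 4.76, 5.71, 31.6 and 25 FPKM, and Bmi1, of the polycomb complex, 5.32, 8.61, 32.7 and 40 FPKM. Relative to the median gene, AFT024 had 2 genes higher, against 23.9% of genes, and 6 lower, against 22.5%, while BFC012 had 1 higher, against 20%, and 7 lower, against 22.8%. Smad7, an inhibitor of TGF-beta signalling, was among the genes lower in AFT024 exosomes in FPKM, with a log2 ratio of -1.78, but its read ratio by library size was 1.03 (0.927 to 1.13).

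Between the lines the list was mostly level. In cells, 2 genes were at least 2-fold higher in AFT024, against 7.54% of genes, and 1 was lower, against 5.95%. The higher ones were Fgfr1, a fibroblast growth factor receptor gene, with 42.2 against 3.5 FPKM, and Vegfa, an angiogenic factor gene, with 24.5 and 10.8; the lower one was Ccnd2. In exosomes, 1 gene was higher, against 7.14%, and 2 were lower, against 15%. The higher one was Dleu2, whose read ratio of 1.34 (0.747 to 2.38) did not pass 2-fold and had an interval that included 1, and the lower ones were Ccnd2 and Smad7, with 5.58 against 22 FPKM. Whether the miRNAs act on these genes in these cells was not tested.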

How the data were processed

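Small RNA and polyA RNA of cells and exosomes of both lines were sequenced. The submitters' processing notes name TopHat, Cufflinks, Bowtie and the build mm10, without versions or roles. The authors deposited a small RNA table of normalized signal, reads per arm divided by a size factor per group, and a polyA table of FPKM per the file headers. The authors' deposited small RNA tables between the lines hold whole counts, and all pairwise tables hold the authors' log2 ratios and q-values. How reads were counted, and whether by strand, is not given in the sources used here.

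Whole reads were recovered from the step of each column, and 100% of values were whole within 0.01 reads. Arms with a value of 10 or more and genes with 1 FPKM or more in at least 1 group were kept. Log2 ratios were taken after adding 1. Read ratios used the deposited size factors for small RNA and library size for polyA RNA. A floor of 3 reads was used for 0. In the authors' polyA tables of exosomes against cells, 4 columns of group values were not used. The members, the gene lists and the comparisons were chosen with earlier results of these data known. Named beside the members are arms with the same seed, the 5 arms nearest in profile and the pathway genes; the blood and liver miRNA list and the arms near miR-15b-3p were chosen after their values were seen. Read recovery and intervals were tested on simulated reads that held counting error only. The intervals were tested for arms with many cell reads, so the test does not cover arms with few, such as miR-15b-3p. Python 3.11.15, numpy 2.4.6, pandas 2.3.3, SciPy 1.17.1 and matplotlib 3.10.9 were used.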

Additional observations from a re-analysis of the deposited data

Results flagged for a closer look

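For miR-195a-5p, exosomes against cells gave log2 ratios of opposite sign in the lines, -1.497 in AFT024 and 0.11 in BFC012, from 24 and 175 exosome reads. The BFC012 read ratio of 1.08 had an interval that includes 1 (0.917 to 1.27), so its sign is not settled. Under library-size scaling the AFT024 interval included 1 instead (0.4575 to 1.084). The difference between the lines was not tested.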

How the results depend on the processing

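No paired analysis was possible because the tables hold 1 merged value per group, and for the same reason no replicate could be left out. Among the members no called log2 ratio turned its sign under the scaling and pseudocount alternatives, while Smad7 in AFT024 exosomes against cells, called lower in FPKM, turned to a log2 ratio of 0.036 in whole reads. Members at least 2-fold higher in exosomes than in cells in AFT024 went from 2 to 1 with 10 added before the log, with a minimum value of 100, and with 10 or more reads in a compared group. In BFC012 they went from 3 to 1 under the latter 2 settings. Lower members went from 6 to 1 in AFT024 and from 4 to 1 in BFC012 under library-size scaling, and to 2 in BFC012 where the whole read-ratio interval had to lie outside 2-fold. Between the exosomes, 4 lower members became 2 with a minimum value of 100, 7 at 1.5-fold and 1 by the interval. The share of miR-16-5p in the 5p reads moved from 88.59%, 92.85%, 90.47% and 89.78% with both rows to 79.56%, 86.71%, 82.84% and 81.78% with 1 row per mature sequence. With whole reads in place of FPKM, higher pathway genes went from 1 to 2 in BFC012 exosomes against cells and from 1 to 3 between the exosomes; the latter 3, Fgfr1, Vegfa and Cdk6, did not include Dleu2, the gene called in FPKM. Of the other counts, 50 were equal to the main count and 17 differed from it by up to 1.5 times. Scaling by the median of ratios moved the exosome to cell log2 ratios by 0.31 in AFT024 and 0.20 in BFC012. The settings with 1 row per mature sequence and 10 or more reads, and the rescaled intervals of the lines, were chosen after seeing the data. So were the limits of 100 exosome reads and 5 cell reads used beside miR-15b-3p. Merging loci with identical values was not run, since the mir-16-5p rows differ. Depth limits the arms with few exosome reads, where 1 read is a value of 2.675 or 2.659.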

Other observations

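For miR-195a-5p in BFC012 exosomes against cells, the authors' deposited table lists a log2 ratio of 0.00472 and a q-value of 4.07e-25. The log2 ratio was 0.11 with the deposited size factors and 1.002 under library-size scaling. This was not particular to the arm: miR-497a-5p is listed with -0.088 and a q-value of 7.87e-40, and had 0.91 under library-size scaling. With 1 merged value per group, variation between cultures is not seen in these values.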
